A study of Mus musculus with 20 samples.

Results

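The genes described here serve mitochondrial protein import, mitochondrial fusion and fission, and the control of protein quality inside the organelle. They were taken as a named list of 42 genes, each read from the probe set that carries its symbol alone, and from the brightest such probe set over the 20 arrays where there were several. Of the 42 genes, 41 were measured, among 19938 genes tested in all. Phb, a prohibitin, lay only on probe sets that name a second gene as well and was not measured. The list groups genes by function, and it was drawn up with earlier results of these data known. The 41 genes were well expressed as a set: their mean levels lay between the 58.5th percentile of all genes, for Chchd4, and the 99.4th, for Timm23, with a median at the 86.2nd.

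Nearly all mitochondrial proteins are made in the cytosol and enter the organelle through a pore of the outer membrane, the TOM complex, before sorting complexes of the intermembrane space and inner membrane (small TIM chaperones, TIM22 and TIM23) and a matrix motor pull them to their place. Mitofusins and OPA1 fuse mitochondria, DRP1 (gene Dnm1l) and its receptors divide them, and chaperones and ATP-dependent proteases fold or degrade the proteins within. In skeletal muscle these systems are known to accompany changes of mitochondrial mass, and Mfn1 and Mfn2 are both needed for a normal muscle mitochondrial network.

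The study measured the gastrocnemius, a mixed and mainly fast calf muscle, of adult male C57BL/6 mice on Affymetrix whole-transcript arrays. NCoR1-MKO mice lack the nuclear receptor corepressor NCoR1 in muscle and were set against CON mice, whose genotype the labels do not state. PGC-1alpha-mTg mice carry extra PGC-1alpha, a coactivator of transcription, in muscle and were set against WT mice. Each of the 4 groups had 5 arrays. The promoters that drive the deletion and the transgene, and the exact age of the mice, are not given in the sources used here, nor is it stated that every array came from its own animal, so p-values here reflect nothing beyond the spread among these arrays, which may be technical. Levels are RMA values on the log2 scale, and a change is a log2 fold change ± SE from 1 limma fit to all arrays. A gene is called, and is said to have risen or fallen, at a Benjamini-Hochberg adjusted p under 0.05 over all genes.

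Array medians lay from 6.03 to 6.08 in the NCoR1-MKO and CON arrays and from 5.84 to 5.91 in the PGC-1alpha-mTg and WT arrays, so levels are compared only within a model and its own controls. Arrays of a group correlated at r from 0.992 to 0.998 across genes. Ppargc1a, the gene of PGC-1alpha, was 1.83 ± 0.07 higher in PGC-1alpha-mTg than in WT. Ncor1 is not analysed here, so the knockout label was not checked against its own gene. Muscle markers were bright in every group, from 12.3 for Des in PGC-1alpha-mTg to 14.0 for Acta1 in NCoR1-MKO. The spread of the 41 genes had a median SD over genes of 0.0537 in NCoR1-MKO, 0.0650 in CON, 0.0604 in PGC-1alpha-mTg and 0.0550 in WT. Over all genes it was 0.0872, 0.0856, 0.105 and 0.0775 in the same order. The 41 genes are brighter than most, and the part of brightness in their smaller spread was not tested.

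**Figure D1:**
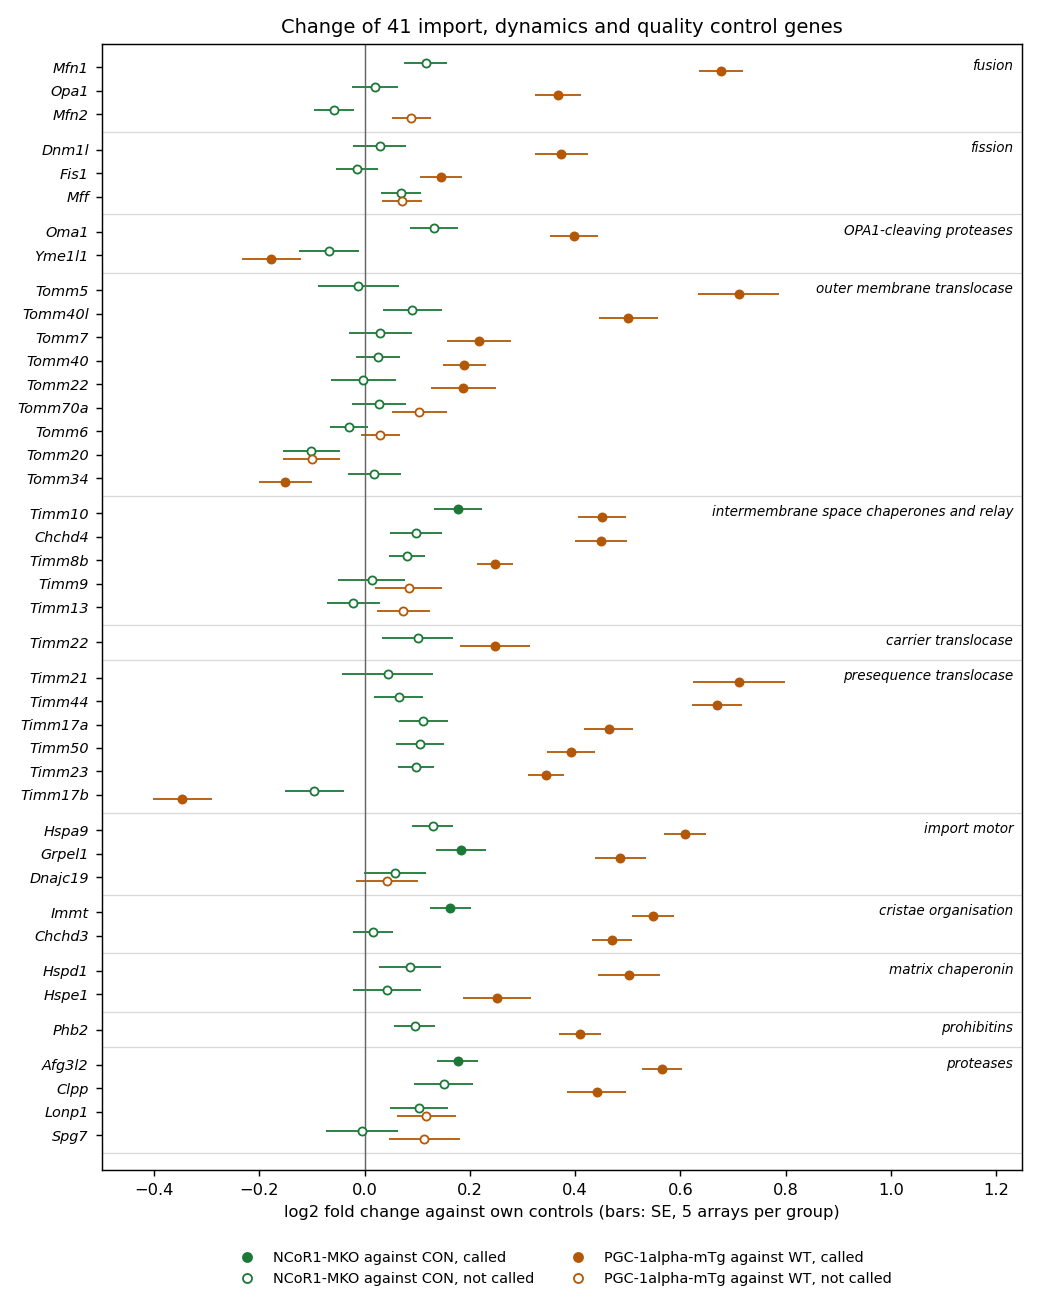
Log2 fold change of each of the 41 genes in NCoR1-MKO against CON (green) and PGC-1alpha-mTg against WT (orange), grouped by role, with SE bars and 5 arrays per group. Filled points passed an adjusted p of 0.05: 28 higher and 3 lower in PGC-1alpha-mTg, 4 higher and 0 lower in NCoR1-MKO.

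The effect of extra coactivator was read by setting PGC-1alpha-mTg against WT. Most of the import and quality control genes rose, by a modest amount. Of 41 genes, 28 rose and 3 fell, beside 11.9% of all genes that rose and 16.1% that fell. The median change was 0.34, a 1.27-fold level, against 0.02 over all genes tested. On 25 genes every PGC-1alpha-mTg array lay above every WT array, and on 3 every array lay below, where 8.72% and 11.2% of all genes did so. Those 3 were Timm17b, Yme1l1 and Tomm20. Of them Tomm20 was not called, while the called fall of Tomm34 had overlapping groups. The mean over the 41 genes was 0.26 to 0.35 above the WT mean on the 5 PGC-1alpha-mTg arrays and from -0.03 to 0.04 around it on the WT arrays. These genes were thus not uniform: 10 were not called, and the change ranged from -0.35 to 0.71.

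The presequence translocase of the inner membrane, TIM23, admits proteins that carry a cleavable targeting sequence. Of its 6 genes 5 rose and 1 fell. Timm21, which links the outer and inner translocases, read 8.72, 8.58, 8.97, 8.82 and 8.96 in PGC-1alpha-mTg, against 8.30, 8.05, 7.91, 7.99 and 8.24 in WT. The groups did not overlap although both were spread widely, and the change was 0.71 ± 0.09 (adjusted p = 1.12e-06), a 1.64-fold rise. Timm44, the membrane anchor of the import motor, read 8.99, 8.80, 8.85, 8.89 and 9.005 in PGC-1alpha-mTg, against 8.26, 8.18, 8.32, 8.14 and 8.28 in WT. All transgenic arrays were higher, by 0.67 ± 0.05 on average (adjusted p = 2.05e-10). Timm50, the receptor that hands preproteins to the channel, rose by 0.39 ± 0.05, and Timm23, the channel itself, by 0.34 ± 0.03. Timm23 has 4 probe sets, of which the 2 brightest hold the same values, and the other 2 gave 0.37 each, so signal from near-identical copies cannot be told apart.

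Timm17a and Timm17b encode alternative core subunits of TIM23, and they moved in opposite directions in the transgenic muscle. Timm17a read 11.29, 11.23, 11.27, 11.20 and 11.25 in PGC-1alpha-mTg, against 10.77, 10.87, 10.79, 10.78 and 10.70 in WT. It rose by 0.46 ± 0.05 (adjusted p = 5.56e-08), and its dimmer probe set also rose, by 0.34 ± 0.05. Timm17b read 8.35, 8.31, 8.25, 8.40 and 8.30 in PGC-1alpha-mTg, against 8.83, 8.72, 8.66, 8.56 and 8.58 in WT. Every transgenic array was below every WT array, and the gene fell by 0.35 ± 0.06 (adjusted p = 4.03e-05), the deepest fall of the set. Within an array the log2 ratio of Timm17a over Timm17b was 0.81 higher in PGC-1alpha-mTg than in WT. An exact permutation test over arrays, two-sided, gave p = 0.00794, the smallest that 5 against 5 allows (adjusted p = 0.0119 over 6 such ratio tests). The pairs for these tests were chosen after seeing the data. With Timm17a above WT and Timm17b below it on every array, this p was fixed beforehand and adds no support.

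The matrix motor draws the preprotein in. Hspa9, the mitochondrial Hsp70 that drives it, read 11.70, 11.69, 11.71, 11.73 and 11.72 in PGC-1alpha-mTg, against 11.09, 11.14, 11.04, 11.10 and 11.11 in WT. The arrays of each group lay close together and far from the other, a rise of 0.61 ± 0.04 (adjusted p = 4.56e-11). Grpel1, its nucleotide exchange factor, rose by 0.49 ± 0.05 (adjusted p = 4.49e-08). Dnajc19, a J-domain partner of the motor, was at 0.04 ± 0.06 (adjusted p = 0.657). The other 2 members of the motor therefore moved without a called change of Dnajc19.

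At the outer membrane the response was mixed: of 9 genes listed with its translocase 5 rose, 1 fell and 3 were not called. The fall was that of Tomm34, whose product is cytosolic, so no gene of the TOM complex itself was called lower. Tomm5, a small subunit of the TOM pore, read 8.24, 8.22, 8.19, 8.31 and 8.59 in PGC-1alpha-mTg, against 7.63, 7.70, 7.70, 7.51 and 7.46 in WT. It rose by 0.71 ± 0.08 (adjusted p = 1.91e-07), level with Timm21 as the largest change of the 41 genes. Its neighbours in the complex moved less: Tomm7 by 0.22 ± 0.06 and the receptor gene Tomm22 by 0.19 ± 0.06. The small subunit gene Tomm6 (0.03 ± 0.04) and the receptor genes Tomm20 (-0.10 ± 0.05) and Tomm70a (0.10 ± 0.05) were not called. Tomm22 missed the threshold without PGC-1alpha-mTg 1, WT 4 or WT 5 (limma adjusted p up to 0.0837), and with each array centred on its median (0.0663).

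Tomm40, the pore-forming subunit, and its paralogue Tomm40l both rose, but not equally. Tomm40l read 8.55, 8.33, 8.28, 8.42 and 8.55 in PGC-1alpha-mTg, against 7.99, 7.90, 7.94, 7.84 and 7.96 in WT. Tomm40 read 8.32, 8.24, 8.19, 8.19 and 8.23 in PGC-1alpha-mTg, against 8.13, 8.07, 7.99, 7.96 and 8.07 in WT. Neither gene had overlapping groups. Tomm40l rose by 0.50 ± 0.06 (adjusted p = 2.89e-07) and Tomm40 by 0.19 ± 0.04 (adjusted p = 0.00113). The log2 ratio of Tomm40l over Tomm40 was 0.31 higher in PGC-1alpha-mTg (exact permutation test, p = 0.00794, adjusted p = 0.0119). Tomm34, a cytosolic cochaperone of import, read 8.24, 8.01, 7.99, 8.18 and 8.24 in PGC-1alpha-mTg, against 8.39, 8.29, 8.27, 8.27 and 8.20 in WT, with overlapping groups. It fell by 0.15 ± 0.05 (adjusted p = 0.0295), a call that was lost without PGC-1alpha-mTg 2 or 3 or WT 1 or 2 (adjusted p up to 0.106) and after quantile normalization across the 20 arrays (0.0758).

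In the intermembrane space, Timm9 with Timm10 and Timm8b with its usual partner Timm13 chaperone hydrophobic proteins, and Chchd4 oxidises incoming small proteins. Of these 5 genes 3 rose: Timm10 by 0.45 ± 0.05 (adjusted p = 6.32e-08), Chchd4 by 0.45 ± 0.05 and Timm8b by 0.25 ± 0.03. Timm9 (0.08 ± 0.06) and Timm13 (0.07 ± 0.05) were not called. Timm22, the channel for carrier proteins, rose by 0.25 ± 0.07 (adjusted p = 0.00690) with overlapping groups.

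**Figure D2:**
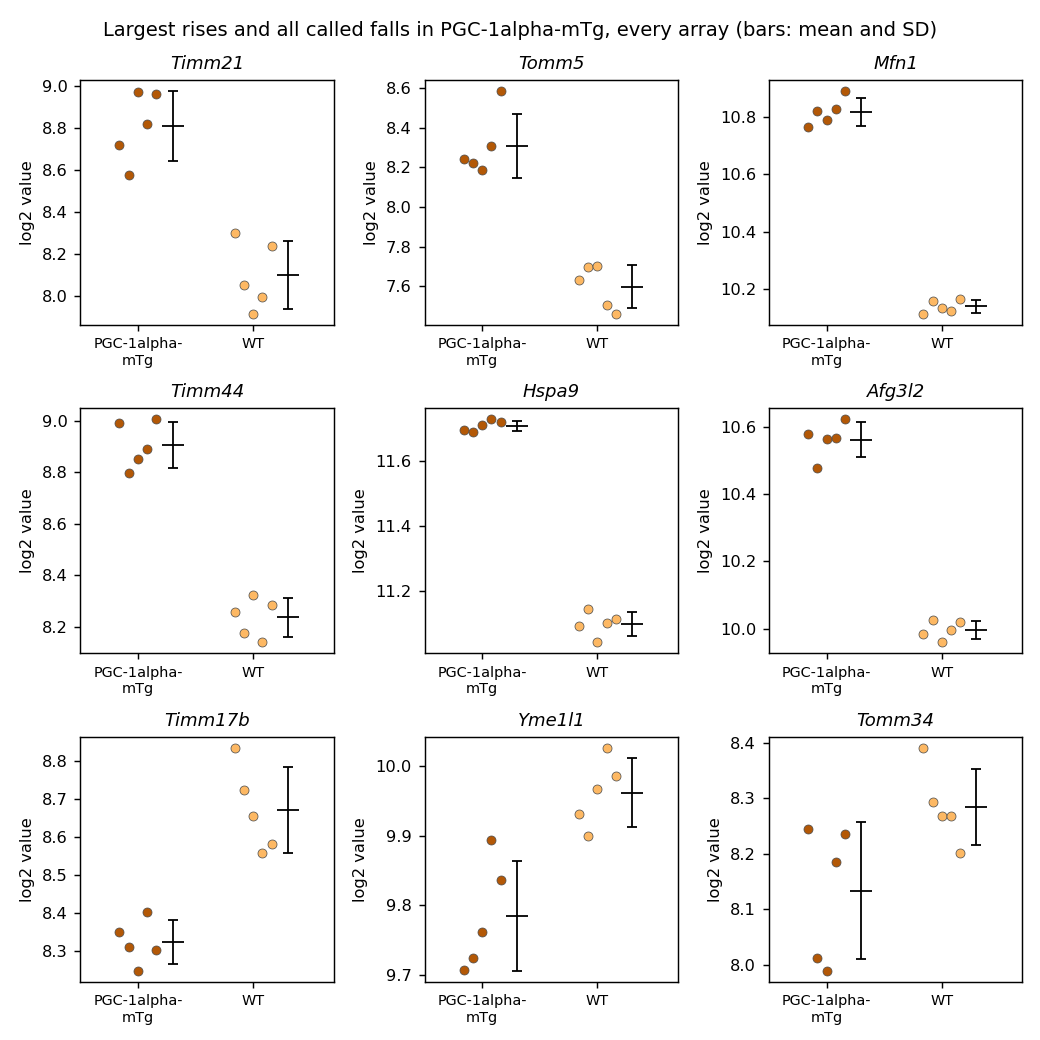
Log2 values of every array for the 6 genes with the largest rises and the 3 called falls in PGC-1alpha-mTg, with the mean and SD of 5 arrays beside the points. The groups overlap for Tomm34 alone among these 9 genes, and each axis covers only the range of its gene.

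Among the genes of mitochondrial shape, Mfn1 stood out. Mfn1, an outer membrane fusion GTPase, read 10.76, 10.82, 10.79, 10.83 and 10.89 in PGC-1alpha-mTg, against 10.11, 10.16, 10.14, 10.12 and 10.17 in WT. This was a rise of 0.68 ± 0.04 (adjusted p = 1.95e-11), or 1.60-fold, with no overlap. Its paralogue Mfn2, which also tethers mitochondria to other membranes, read 11.69, 11.63, 11.65, 11.67 and 11.68 in PGC-1alpha-mTg, against 11.50, 11.61, 11.56, 11.60 and 11.60 in WT. All transgenic arrays of Mfn2 were above WT as well, but by 0.09 ± 0.04, which was not called (adjusted p = 0.0877; 0.0247 with a trended and robust variance). The log2 ratio of Mfn1 over Mfn2 was 0.59 higher in PGC-1alpha-mTg than in WT (exact permutation test, p = 0.00794, adjusted p = 0.0119). Every transgenic array exceeded every WT array by more on Mfn1 than on Mfn2. This p was thus fixed beforehand and adds no support.

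The inner membrane fusion gene Opa1 rose by 0.37 ± 0.04 (adjusted p = 6.70e-07). So did Dnm1l, whose product divides mitochondria, by 0.37 ± 0.05 (adjusted p = 3.74e-06), and Fis1, an outer membrane protein of fission, by 0.15 ± 0.04 (adjusted p = 0.00750). Mff, the main receptor for DRP1, was at 0.07 ± 0.04 (adjusted p = 0.181). Genes of fusion and of fission thus rose in the same muscles, 2 of 3 in each role. The proteases that cleave OPA1 parted: the stress-activated Oma1 rose by 0.40 ± 0.05 (adjusted p = 3.91e-07), whereas Yme1l1 fell by 0.18 ± 0.06 (adjusted p = 0.0211). Yme1l1 read 9.71, 9.73, 9.76, 9.89 and 9.84 in PGC-1alpha-mTg, against 9.93, 9.90, 9.97, 10.03 and 9.99 in WT, just without overlap, and its call was lost without PGC-1alpha-mTg 1 or 2 or WT 4 (adjusted p up to 0.0553).

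The cristae and quality control genes rose for the most part. Immt, the core of the MICOS complex that shapes cristae junctions, rose by 0.55 ± 0.04 (adjusted p = 2.54e-10) and its MICOS partner Chchd3 by 0.47 ± 0.04. Hspd1 and Hspe1, the chaperonin and its lid, rose by 0.50 ± 0.06 and 0.25 ± 0.06, and the second probe set of each gave 0.55 and 0.23. Phb2, a prohibitin of the inner membrane scaffold, rose by 0.41 ± 0.04. The ATP-dependent proteases were unequal. Afg3l2, a subunit of the m-AAA protease of the inner membrane, read 10.58, 10.48, 10.56, 10.57 and 10.62 in PGC-1alpha-mTg, against 9.98, 10.03, 9.96, 9.996 and 10.02 in WT. It rose by 0.56 ± 0.04 (adjusted p = 1.14e-10), while Spg7, which pairs with it in that protease, was at 0.11 ± 0.07 (adjusted p = 0.244). In the matrix, Clpp rose by 0.44 ± 0.06 (adjusted p = 1.77e-06) and Lonp1 was at 0.12 ± 0.06 (adjusted p = 0.131). After quantile normalization across the 20 arrays Spg7 (0.17), Lonp1 (0.17) and Tomm70a (0.16) were called as well.

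The promoters of these genes were read for binding letters of factors known to act with PGC-1alpha on mitochondrial genes. RefSeq windows on GRCm38.p6, from 250 bases before to 50 bases after a gene start, were at hand for 36 of the 41 genes, in 44 windows. None was at hand for Tomm7, Tomm40l, Timm21, Hspa9 and Afg3l2. Both strands were searched for 3 motifs that do not contain one another: TCAAGGTCA, the estrogen-related receptor site, the NRF1 site, and CCGGAAGTG, the GABPA site. The NRF1 letters were in 8 of the 44 windows (18.2%, against 4.60% of all 32851 windows), those of GABPA in 5 (11.4%, against 2.03%) and those of the estrogen-related receptor in 1 (2.27%, against 0.423%). The windows of all genes were not matched to these in expression level or base composition. Whether the higher shares are particular to this list was not tested. A match describes letters only and says nothing of binding. The 5 windows below show the range: Timm8b holds a receptor and an NRF1 match, Immt and Timm10 were called in both mouse models, Opa1 has a match that reads alike on both strands, and Spg7 has NRF1 matches but no called change. Motif letters are in capitals, and each window is printed 5′ to 3′ on the strand of its gene.
Timm8b (chr9:50603651-50603950, plus strand): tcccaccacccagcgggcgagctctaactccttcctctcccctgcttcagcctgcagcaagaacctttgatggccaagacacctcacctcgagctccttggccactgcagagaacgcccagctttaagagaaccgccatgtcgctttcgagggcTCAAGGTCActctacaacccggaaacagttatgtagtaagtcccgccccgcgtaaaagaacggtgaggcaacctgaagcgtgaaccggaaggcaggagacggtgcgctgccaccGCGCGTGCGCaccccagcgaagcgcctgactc
Immt (chr6:71831070-71831369, plus strand): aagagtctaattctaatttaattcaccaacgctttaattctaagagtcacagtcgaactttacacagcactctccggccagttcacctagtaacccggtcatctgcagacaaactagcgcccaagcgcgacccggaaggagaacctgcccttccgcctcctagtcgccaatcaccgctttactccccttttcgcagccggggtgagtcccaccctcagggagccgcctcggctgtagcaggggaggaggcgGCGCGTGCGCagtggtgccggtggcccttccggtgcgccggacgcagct
Timm10 (chr2:84826771-84827070, plus strand): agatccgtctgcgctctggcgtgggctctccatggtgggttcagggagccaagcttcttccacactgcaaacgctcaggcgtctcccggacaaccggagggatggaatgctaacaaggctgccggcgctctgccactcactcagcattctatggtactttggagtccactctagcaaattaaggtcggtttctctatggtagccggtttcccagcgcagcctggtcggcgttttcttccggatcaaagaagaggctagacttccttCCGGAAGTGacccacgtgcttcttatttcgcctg
Opa1 (chr16:29579084-29579383, plus strand): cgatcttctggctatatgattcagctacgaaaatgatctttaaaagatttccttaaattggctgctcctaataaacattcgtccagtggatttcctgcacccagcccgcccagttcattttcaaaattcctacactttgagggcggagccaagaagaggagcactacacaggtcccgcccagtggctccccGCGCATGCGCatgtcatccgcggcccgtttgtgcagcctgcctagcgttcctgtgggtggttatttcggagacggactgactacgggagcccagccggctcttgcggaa
Spg7 (chr8:123065258-123065557, plus strand): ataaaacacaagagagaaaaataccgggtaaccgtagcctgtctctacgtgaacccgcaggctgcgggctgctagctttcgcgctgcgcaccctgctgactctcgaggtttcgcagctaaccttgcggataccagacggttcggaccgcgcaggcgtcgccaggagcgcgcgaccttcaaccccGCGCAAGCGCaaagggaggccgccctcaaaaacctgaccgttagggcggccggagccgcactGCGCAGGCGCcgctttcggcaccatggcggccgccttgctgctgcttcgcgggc

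Of the 8 genes with an NRF1 match, 6 rose in PGC-1alpha-mTg (Chchd4, Hspd1, Immt, Oma1, Opa1 and Timm8b), and Spg7 and Tomm20 were not called. Of the 5 with a GABPA match, 4 rose (Fis1, Phb2, Timm10 and Timm23) and Tomm70a was not called. These counts stand beside 28 of all 41 genes that rose, among them every gene without a window. Whether a match goes with a rise was not tested. The genes with the largest rises that had a window, Tomm5, Mfn1 and Timm44, held none of the 3 motifs in these windows.

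Loss of the corepressor was read by setting NCoR1-MKO against CON. Here few of the genes passed the test, and the changes were small. Of 41 genes 4 rose and 0 fell, beside 1.31% of all genes that rose and 1.32% that fell. At an unadjusted limma p under 0.05, 13 were higher and 0 lower, where 11.8% of all genes passed that threshold in either direction. The median change was 0.06, or 1.04-fold, against 0.00143 over all genes, and the changes ran from -0.10 to 0.18. Of the changes 31 were positive. On 9 genes every NCoR1-MKO array was above every CON array and on 0 below, where 2.21% and 1.96% of all genes were so placed. The mean over the 41 genes was 0.02 to 0.08 above the CON mean on the NCoR1-MKO arrays and from -0.05 to 0.04 around it on the CON arrays, so the groups overlapped.

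**Figure D3:**
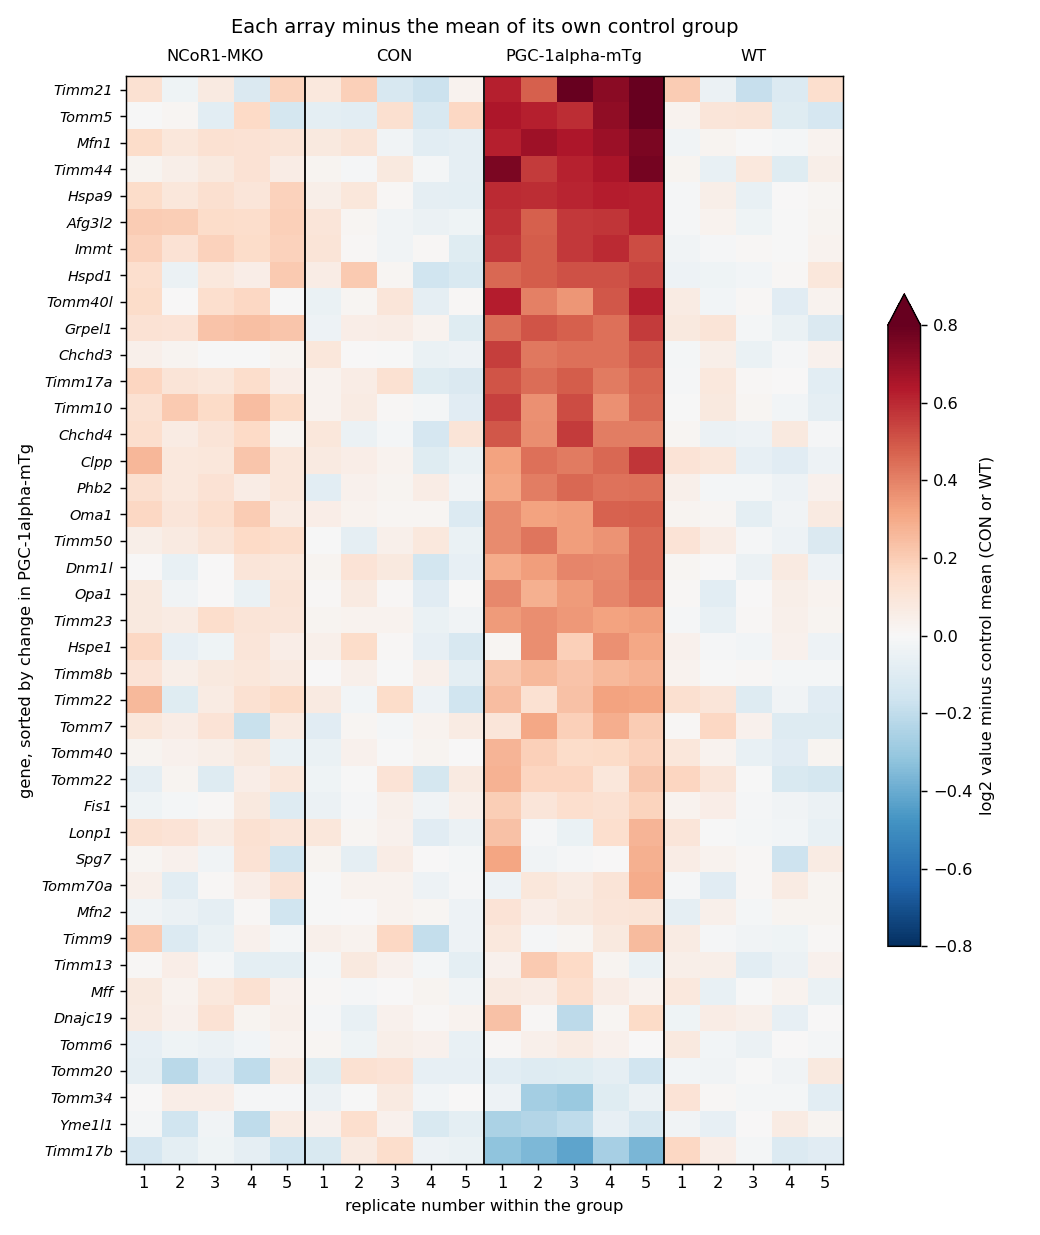
Log2 value of each of the 41 genes on each of the 20 arrays, minus the mean of the CON arrays (for NCoR1-MKO and CON) or of the WT arrays (for PGC-1alpha-mTg and WT), with genes sorted by their change in PGC-1alpha-mTg. The PGC-1alpha-mTg arrays are red for most genes and blue or pale blue for Timm17b, Yme1l1, Tomm34 and Tomm20. The NCoR1-MKO arrays are pale throughout, and colour is capped at 0.8.

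The 4 called genes came from 4 roles. Afg3l2 read 10.20, 10.19, 10.14, 10.14 and 10.19 in NCoR1-MKO, against 10.09, 10.01, 9.96, 9.94 and 9.96 in CON. Every knockout array was higher, and the rise was 0.18 ± 0.04 (adjusted p = 0.0110), or 1.13-fold. Immt read 11.03, 10.96, 11.03, 10.99 and 11.03 in NCoR1-MKO, against 10.95, 10.85, 10.82, 10.85 and 10.74 in CON, a rise of 0.16 ± 0.04 (adjusted p = 0.0237). CON 1 lay just under the lowest knockout array. Timm10 read 7.61, 7.70, 7.64, 7.74 and 7.64 in NCoR1-MKO, against 7.52, 7.55, 7.49, 7.47 and 7.40 in CON, a rise of 0.18 ± 0.05 (adjusted p = 0.0368). Grpel1 read 9.22, 9.21, 9.33, 9.35 and 9.33 in NCoR1-MKO, against 9.07, 9.16, 9.16, 9.13 and 9.005 in CON, a rise of 0.18 ± 0.05 (adjusted p = 0.0407). None of the 4 had overlapping groups.

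These calls were near the threshold. Afg3l2 stayed called in all 20 fits that left out an array. Immt lost it without NCoR1-MKO 1 or 3 or CON 3 or 5 (limma adjusted p up to 0.0782), Timm10 without NCoR1-MKO 2, 3 or 4 or CON 1, 3, 4 or 5 (up to 0.110), and Grpel1 without NCoR1-MKO 3, 4 or 5, CON 1, 3, 4 or 5 or WT 3 (up to 0.122). The number of genes called higher was 1 without NCoR1-MKO 3, CON 3 or CON 5, and 2 without NCoR1-MKO 4, CON 1 or CON 4. Fitted to the 10 arrays of this comparison alone, none of the 4 was called, with adjusted p from 0.0515 for Afg3l2 to 0.0925 for Immt, at the same changes and with 12 genes at an unadjusted p under 0.05.

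**Figure D4:**
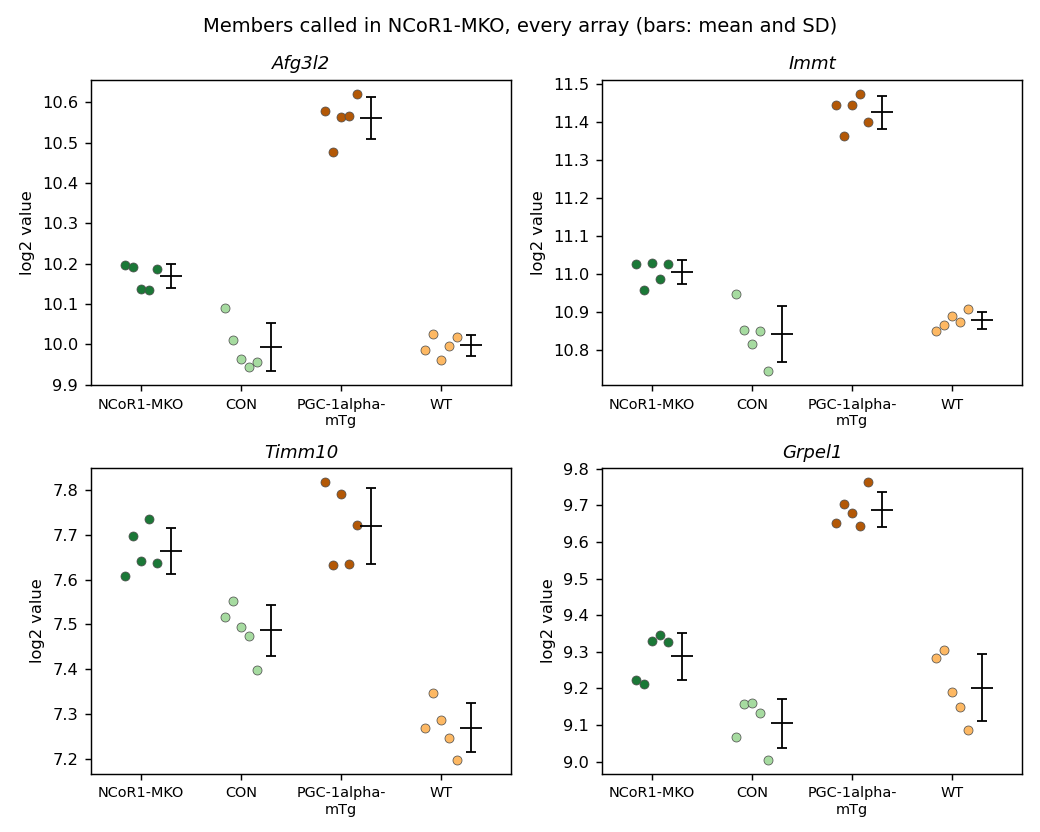
Log2 values of every array in all 4 groups for Afg3l2, Immt, Timm10 and Grpel1, the genes called in NCoR1-MKO, with mean and SD of 5 arrays beside the points. NCoR1-MKO lies above CON without overlap in each panel, by 0.16 to 0.18, and PGC-1alpha-mTg above WT by 0.45 to 0.56. Levels of the pairs of groups come from arrays with different medians and are not compared across them.

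Of the genes that were not called in the knockout, Hspa9 was closest (0.13 ± 0.04, adjusted p = 0.0877, and 0.0451 without CON 2), with overlapping groups. Clpp (0.15 ± 0.06), Oma1 (0.13 ± 0.05), Mff (0.07 ± 0.04), Timm8b (0.08 ± 0.03) and Timm23 (0.10 ± 0.03) had every knockout array above CON and were not called. With a trended and robust variance Hspa9 (limma adjusted p = 0.0162) and Timm23 (0.0234) passed, while Timm10 lost its call (0.0528). Mfn1 was at 0.12 ± 0.04 (adjusted p = 0.172), with 9.94, 9.88, 9.91, 9.91 and 9.90 in NCoR1-MKO, against 9.87, 9.90, 9.77, 9.71 and 9.72 in CON. Mfn2 was at -0.06 ± 0.04 (adjusted p = 0.635), with 11.82, 11.80, 11.78, 11.86 and 11.69 in NCoR1-MKO, against 11.84, 11.85, 11.88, 11.86 and 11.81 in CON. Neither mitofusin gene was called. Their log2 ratio was 0.18 higher in NCoR1-MKO than in CON (exact permutation test, p = 0.00794, adjusted p = 0.0119). The ratio of Timm17a over Timm17b was 0.21 higher (p = 0.0159, adjusted p = 0.0191 in the exact permutation test), with Timm17a at 0.11 ± 0.05 and Timm17b at -0.10 ± 0.06. The ratio of Tomm40l over Tomm40 was 0.06 higher (p = 0.159 in the exact permutation test). A ratio within an array shows unequal change of the pair, not which of them moved. The pairs were chosen after seeing the data, and the adjustment covers only the 6 ratio tests. These p-values therefore describe the ratios and do not stand in for a call of either gene.

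**Figure D5:**
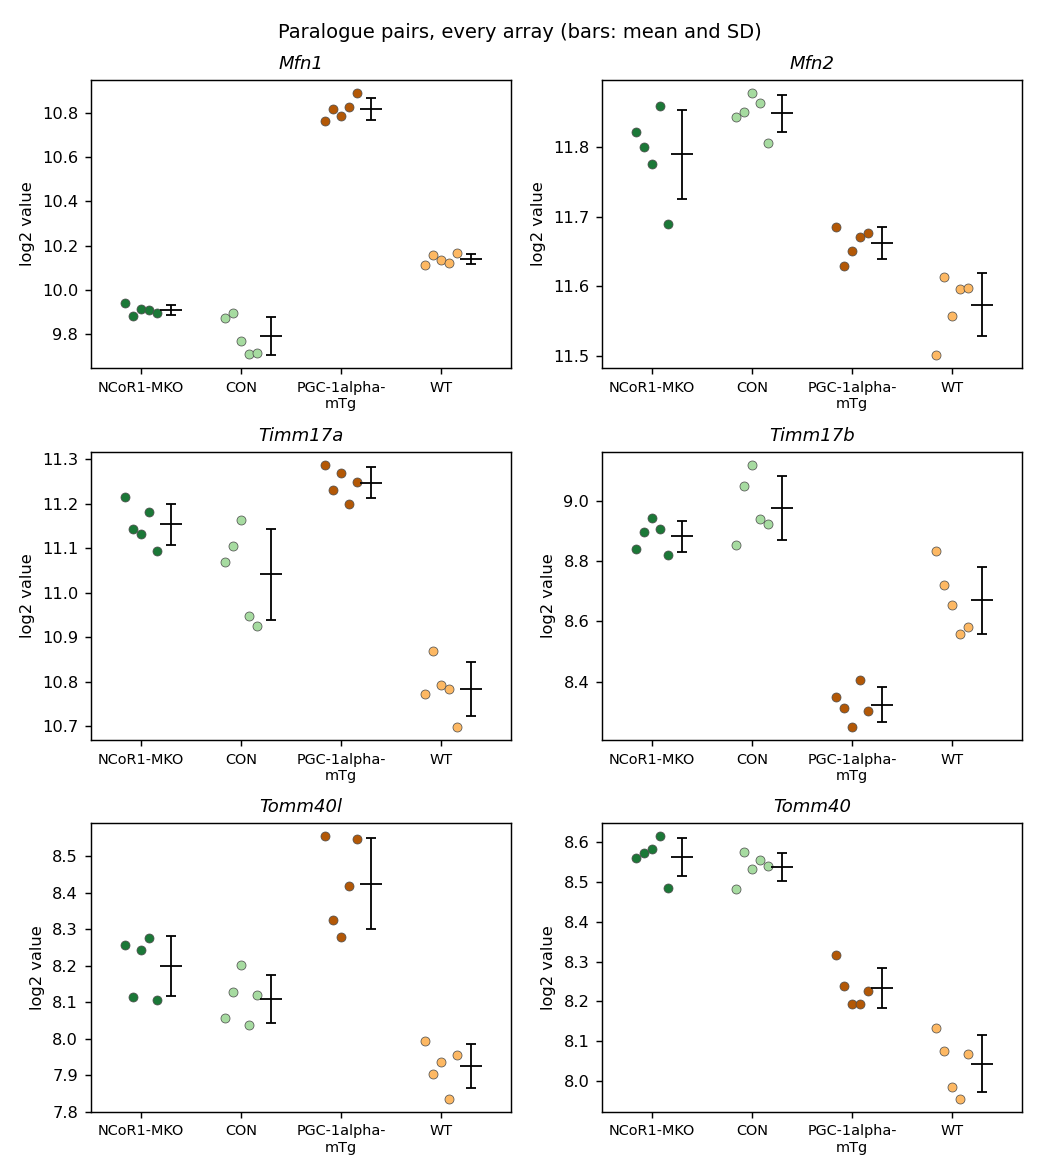
Log2 values of every array for the paralogues Mfn1 and Mfn2, Timm17a and Timm17b, and Tomm40l and Tomm40, with mean and SD of 5 arrays beside the points and a separate axis for each gene. PGC-1alpha-mTg lies far above WT for Mfn1 (by 0.68), Timm17a (0.46) and Tomm40l (0.50), and below WT for Timm17b (-0.35).

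Whether the models differed was tested as the difference of their effects, PGC-1alpha-mTg against WT minus NCoR1-MKO against CON, which share no control array. The effect was more positive in the transgenic mice for 22 of 41 genes and more negative for 1, beside 6.66% and 8.50% of all genes. All 23 were genes called in PGC-1alpha-mTg. The largest differences were those of Tomm5 (0.72 ± 0.11, adjusted p = 5.25e-05), Timm21 (0.67 ± 0.12), Timm44 (0.60 ± 0.07) and Mfn1 (0.56 ± 0.06, adjusted p = 3.69e-07). The 4 genes called in both models also differed: Afg3l2 by 0.39 ± 0.05, Immt by 0.38 ± 0.06, Grpel1 by 0.30 ± 0.07 and Timm10 by 0.27 ± 0.06. Timm17b was the gene with the more negative effect in PGC-1alpha-mTg (difference -0.25 ± 0.08, adjusted p = 0.0330). It missed the threshold in 10 of 20 fits that left out an array (adjusted p up to 0.0699), namely without NCoR1-MKO 2, 3 or 4, CON 1, 4 or 5, PGC-1alpha-mTg 2 or 3, or WT 1 or 2. The difference for Timm8b (0.17 ± 0.05, adjusted p = 0.0198) missed the threshold with each array centred on its median (0.0680). For 8 genes called in PGC-1alpha-mTg the difference did not pass: Fis1, Yme1l1, Tomm7, Tomm22, Tomm34, Tomm40, Timm22 and Hspe1.

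Other genes of import, cristae, dynamics and quality control were read from 4 further lists, with 48 of 55 genes measured. In PGC-1alpha-mTg 25 rose and 6 fell, beside 11.9% of all genes that rose and 16.1% that fell. The median change was 0.17, against 0.02 over all genes. Among import genes 12 of 19 rose and 2 fell. The J-protein gene Dnajc15 rose by 0.76 ± 0.04, Mtx2, of the outer membrane sorting machinery, by 0.73 ± 0.07 and the small TIM gene Timm8a1 by 0.68 ± 0.09, while the sulfhydryl oxidase gene Gfer, the partner of Chchd4, fell by 0.32 ± 0.06 and the processing peptidase gene Pmpca by 0.16 ± 0.04. Of 5 cristae genes 4 rose, led by the MICOS gene Micos10 at 0.62 ± 0.06. Of 8 quality control genes 4 rose, among them the chaperone gene Dnaja3 (0.63 ± 0.04), the protease gene Htra2 (0.55 ± 0.05) and the rhomboid protease gene Parl (0.50 ± 0.06). The kinase gene Pink1 and Park7 of that list each fell by 0.16, and Pink1 missed the threshold without PGC-1alpha-mTg 2 or 3 or WT 1 (adjusted p up to 0.0620).

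The widest changes lay among the 16 further genes of dynamics and motility, of which 5 rose and 2 fell. Mtfp1, an inner membrane protein that promotes fission, averaged 9.97 ± 0.0871 in PGC-1alpha-mTg and 8.61 ± 0.0731 in WT (SD, n = 5 each), a rise of 1.37 ± 0.05 (adjusted p = 1.05e-14). It also rose in NCoR1-MKO, by 0.29 ± 0.05 (adjusted p = 0.00121). Gdap1, an outer membrane protein also tied to fission, fell by 1.40 ± 0.14 in PGC-1alpha-mTg (adjusted p = 7.41e-08) and was at -0.01 ± 0.14 in NCoR1-MKO. In the knockout 12 of the 48 genes were higher and 1 lower at an unadjusted limma p under 0.05, beside the same 11.8% of all genes. Of the 48 genes 3 rose and 0 fell, beside 1.31% and 1.32% of all genes. Beside Mtfp1 these were the processing peptidase gene Pmpcb (0.27 ± 0.06, adjusted p = 0.00591) and Dnaja3 (0.23 ± 0.04, adjusted p = 0.00391). A list of mitochondrial stress response genes (Atf4, Atf5, Ddit3, Fgf21, Trib3, Asns and Chac1) had 0 of 7 called in either model. Of all genes 11.9% rose and 16.1% fell in PGC-1alpha-mTg. So few genes were called in NCoR1-MKO that 0 of 7 there says little. At an unadjusted limma p under 0.05 there were 0 in NCoR1-MKO and 1 in PGC-1alpha-mTg (Chac1, lower), beside 11.8% and 37% of all genes.

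Markers of muscle, of fibre type and of other cells were read on the same arrays. Of 6 skeletal muscle genes, Mb, the oxygen carrier myoglobin, rose in PGC-1alpha-mTg by 0.29 ± 0.05 (adjusted p = 7.4e-05). The other 5 (Acta1, Ckm, Des, Myh4 and Tnnt3) were not called, at -0.09 to -0.03. Of these, 3 (Acta1, Ckm and Des) were lower at an unadjusted limma p under 0.05. Every PGC-1alpha-mTg array of Acta1 and Ckm lay below every WT array. In this model a mean over the 6 genes joins the rise of Mb with the lower values of the other 5. In NCoR1-MKO 0 of the 6 were called, and 0 at an unadjusted limma p under 0.05. Their mean lay from -0.02 to 0.02 on both PGC-1alpha-mTg and WT arrays, and from 0.02 to 0.04 on NCoR1-MKO arrays and from -0.01 to 0.01 on CON arrays, the last pair without overlap. Slow-fibre genes (Myh7, Myl2, Myl3, Tnnt1, Tnni1 and Tnnc1) were lower in both models, with 4 of 6 called lower in PGC-1alpha-mTg and 2 of 6 in NCoR1-MKO. Their mean lay from -1.40 to -0.38 on PGC-1alpha-mTg arrays and from -0.23 to 0.37 on WT arrays, and from -1.75 to -0.28 on NCoR1-MKO arrays and from -0.66 to 0.49 on CON arrays. Endothelial genes (Pecam1, Cdh5, Kdr, Tek and Emcn) had 4 of 5 called higher in PGC-1alpha-mTg and 1 of 5 in NCoR1-MKO. Their mean lay from 0.29 to 0.43 on PGC-1alpha-mTg arrays and from -0.11 to 0.18 on WT arrays, and from 0.09 to 0.45 on NCoR1-MKO arrays and from -0.16 to 0.12 on CON arrays. Macrophage, adipocyte and blood markers had 0 called of 4, 3 and 2 measured in either model, and at an unadjusted limma p under 0.05 only 1, the leukocyte gene Ptprc, at 0.15 ± 0.06 in PGC-1alpha-mTg (adjusted p = 0.0798). Fibroblast markers had 2 of 4 and nerve markers 1 of 2 called lower in PGC-1alpha-mTg. Over all genes, 11.9% rose and 16.1% fell in PGC-1alpha-mTg, and 1.31% rose and 1.32% fell in NCoR1-MKO. Lists of 2 to 6 markers are too short for 1 or 2 calls to be set firmly apart from the transgenic shares. The part of these shifts in the changes of the import genes was not tested, and in whole muscle fewer cells of a type and less RNA per cell cannot be told apart.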

How the data were processed

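Gastrocnemius RNA of 20 mouse samples in 4 groups of 5 was read on 1-colour whole-transcript arrays. The authors deposited log2 values per probe set, made by RMA in Partek per the submitters' processing notes, with no versions given in the sources used here. Of 35556 probe sets, 21789 name 1 gene, 1621 name several and were left out, and 12146 name none. Probe sets were reduced to 19938 genes by the brightest set of each gene. From these values limma 3.58.1 in R 4.3.3 fitted 1 mean per group over all 20 arrays (lmFit, eBayes), with no covariate, and gave the change in NCoR1-MKO over CON, that in PGC-1alpha-mTg over WT and the difference of these 2 effects. P-values were adjusted by Benjamini-Hochberg over all genes at 0.05. The script was tested on simulated data.

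The genes, the further lists and the markers were chosen with earlier results of these data known. Every listed gene is reported by role, with values on each array for the genes called in NCoR1-MKO, the 6 largest rises and all falls in PGC-1alpha-mTg, and 3 paralogue pairs. The tests of paralogue ratios, exact permutation tests over arrays, were chosen after seeing the data. Promoters came from RefSeq on GRCm38.p6. The alternatives were quantile normalization, centring, averaging all probe sets per gene, a filter on dim genes, a trended variance, the arrays of 1 comparison alone, a replicate block, and each array left out in turn. For arrays, their number limits the precision.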

Additional observations from a re-analysis of the deposited data

Results flagged for a closer look

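On 4 of 164 combinations of a gene and a group, 1 array lay far from the other 4 by Dixon's test, which flags about 5% of groups by chance. Oma1 read 8.55 in CON 5, below 8.67 to 8.71 on the other CON arrays. Tomm7 read 9.01 in NCoR1-MKO 4, below 9.25 to 9.30 on the others. Tomm20 read 9.38 in WT 5, above 9.27 to 9.30, and Spg7 read 8.09 in WT 4, below 8.26 to 8.31.

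The effect of PGC-1alpha-mTg against WT differed from that of NCoR1-MKO against CON for 23 genes, by limma's test of the difference itself. Among import genes the difference was 0.72 for Tomm5, 0.41 for Tomm40l, 0.17 for Timm8b, 0.27 for Timm10, 0.35 for Chchd4, 0.35 for Timm17a, -0.25 for Timm17b, 0.67 for Timm21, 0.25 for Timm23, 0.60 for Timm44, 0.29 for Timm50, 0.48 for Hspa9 and 0.30 for Grpel1. Among genes of mitochondrial shape it was 0.56 for Mfn1, 0.35 for Opa1, 0.35 for Dnm1l, 0.27 for Oma1, 0.38 for Immt and 0.45 for Chchd3. Among genes of protein quality it was 0.42 for Hspd1, 0.31 for Phb2, 0.29 for Clpp and 0.39 for Afg3l2. Timm17b was the gene whose effect was more negative in PGC-1alpha-mTg, at -0.35 against -0.10 in NCoR1-MKO.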

How the results depend on the processing

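No change of a called gene turned its direction under the alternatives run. Of 31 genes called in PGC-1alpha-mTg 28 kept their call in every alternative, and of 23 differences of effects 21 did, while of the 4 genes called in NCoR1-MKO 0 did. The number called higher in NCoR1-MKO was 2 with each array centred, 0 with only the 10 arrays of the comparison (12 at an unadjusted limma p under 0.05), and 1 to 5 with an array left out. The genes called lower in PGC-1alpha-mTg numbered 1 to 3 with an array left out (1 without PGC-1alpha-mTg 2), and those with a lower difference of effects 0 to 1. Without the dimmest 40% of genes, 5 of the other pathway genes were called higher in NCoR1-MKO and 1 lower: the 3 already called with Timm29 and Romo1, and Immp1l. That alternative tests fewer genes. The causes of the other shifts were not tested. The difference for Timm8b was lost with centring (adjusted p = 0.0680). Same-numbered arrays of NCoR1-MKO and CON correlated at -0.132 to 0.04 in their deviations and those of PGC-1alpha-mTg and WT at -0.232 to 0.196. PGC-1alpha-mTg 1 and 4 correlated best with the WT array of their own number, and no NCoR1-MKO array did so with CON. Such correlations cannot settle whether the numbers pair the samples. With the number as a replicate block, 0 genes were called in NCoR1-MKO (10 at an unadjusted limma p under 0.05), and the difference for Timm8b was lost (adjusted p = 0.0817).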
